A study of Mus musculus with 10 samples.

Results

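Of 79350 regions with a peak in any of 8 ChIP-seq libraries of mouse embryonic stem (ES) cells, 5773 (7.28%) had a peak in the first replicate of both TET2 experiments and in no other library. They are called shared replicate-1 regions here. Each had a peak with the TET2 antibody in wild-type replicate 1 and a peak with the FLAG resin in FLAG-TET2 replicate 1. None had a peak in wild-type replicate 2, FLAG-TET2 replicate 2, or any of the 4 libraries without the epitope. A region is the union of all peaks that share at least 1 bp, on chromosomes 1 to 19, X and Y. The regions were chosen by the measured peak calls of these 8 lists, so presence, absence and peak strength are descriptions below and carry no test.

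TET2 is a dioxygenase that oxidises 5-methylcytosine to 5-hydroxymethylcytosine and further products, mostly at CpG dinucleotides, which opens a route to demethylation. It lacks the CXXC zinc finger by which TET1 and TET3 bind CpG-rich DNA, and is thought to reach chromatin largely through partner proteins. In ES cells it is expressed together with TET1 and has been linked mainly to enhancers and gene bodies.

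Wild-type cells were Tet2fl/fl without a tag, and knockout cells were Tet2-/-. Both were precipitated with a rabbit polyclonal antibody raised against the N-terminal part of TET2. FLAG-TET2 cells were Tet2fl/fl and expressed 2x-Flag tagged TET2 from the endogenous locus. The parental cells were Tet2fl/fl without the tag, and for both the FLAG M2 affinity gel was used. All cells grew in serum with LIF, 3 μM of the GSK-3 inhibitor CHIR99021 and 1 μM of the MEK inhibitor PD0325901, and chromatin was crosslinked with 2 mM disuccinimidyl glutarate and 1% formaldehyde. Each of the 4 groups had 2 libraries. The labels do not say whether replicates, or the knockout and tagged lines, came from separate cultures or clones, nor do they give the sex of the cells. Peak lists measure no expression, so the ES cell label could not be checked against expressed markers. Wild-type and FLAG-TET2 libraries are target lists below, and knockout and parental libraries control lists. The lists used held between 2259 (knockout 1) and 63578 (FLAG-TET2 1) peaks. Wild-type replicates held 38536 and 18820, FLAG-TET2 replicates 63578 and 28245, and parental replicates 36518 and 10122 peaks. Sequencing depth is unknown, so the absence of a peak does not show the absence of signal.

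Some of the regions lay over gene starts, and the sequences there differed in CpG content. The strongest ones over a promoter window (250 bases before to 50 after a start, RefSeq, GRCm38.p6, the assembly that mm10 represents) are shown to let this range be seen, with every CpG in capitals, 5′ to 3′ on the gene's strand. They are the windows of Rcan1, a regulator of calcineurin (chr16:92400029-92400328, minus strand), Vrtn (chr12:84640769-84641068, plus strand), and the predicted genes Gm40847 (chr12:19066133-19066432, plus strand) and Gm39041 (chr7:79298700-79298999, plus strand).
Rcan1: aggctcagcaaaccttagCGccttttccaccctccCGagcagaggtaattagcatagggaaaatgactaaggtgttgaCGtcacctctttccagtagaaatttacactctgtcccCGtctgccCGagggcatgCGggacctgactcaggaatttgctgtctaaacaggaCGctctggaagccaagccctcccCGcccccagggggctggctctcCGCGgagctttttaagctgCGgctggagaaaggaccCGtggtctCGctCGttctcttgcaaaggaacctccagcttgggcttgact
Vrtn: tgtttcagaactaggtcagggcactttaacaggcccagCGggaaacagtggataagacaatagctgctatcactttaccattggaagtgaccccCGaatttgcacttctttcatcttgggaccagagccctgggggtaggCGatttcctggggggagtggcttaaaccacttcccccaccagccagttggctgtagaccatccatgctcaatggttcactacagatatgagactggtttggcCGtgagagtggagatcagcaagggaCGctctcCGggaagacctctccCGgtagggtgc
Gm40847: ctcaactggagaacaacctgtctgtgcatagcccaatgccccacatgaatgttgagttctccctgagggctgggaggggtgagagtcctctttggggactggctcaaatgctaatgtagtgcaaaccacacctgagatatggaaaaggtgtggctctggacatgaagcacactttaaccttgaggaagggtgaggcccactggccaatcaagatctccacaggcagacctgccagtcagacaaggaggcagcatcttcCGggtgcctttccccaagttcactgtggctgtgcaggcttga
Gm39041: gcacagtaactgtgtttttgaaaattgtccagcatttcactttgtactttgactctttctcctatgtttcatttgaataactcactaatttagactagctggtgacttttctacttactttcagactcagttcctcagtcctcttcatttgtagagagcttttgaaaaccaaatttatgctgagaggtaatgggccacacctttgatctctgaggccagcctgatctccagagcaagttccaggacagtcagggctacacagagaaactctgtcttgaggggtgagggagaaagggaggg
The Rcan1 window holds 14 CpGs and the Vrtn window 7, while the windows of Gm40847 and Gm39041 hold 1 and 0. Each is below the median of 17 over all windows that a shared replicate-1 region overlapped, so the CpG-rich windows are not shown.

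At Rcan1 the authors' fold enrichment, the pileup at the summit over the control track, was 8.73 in wild-type 1 and 6.84 in FLAG-TET2 1. Both summits lay just upstream of the start, at -73 and -80 bp. At Vrtn the folds were 7.89 and 9.44, with summits at -161 and -190 bp. The Gm39041 window, which has no CpG, had folds of 8.70 and 11.4 and summits at -57 and -82 bp, and the Gm40847 window had 8.25 and 9.12 with summits at -72 and -71 bp. The next in rank, Psme3ip1, shared only 9 bp with its window. These windows were chosen as the strongest, so their like folds follow from that choice. They do not show whether fold depends on CpG content.

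In all, 513 shared replicate-1 regions overlapped 591 promoter windows, 1.80% of the 32817 in the table. These windows had a median GC content of 60% and a median of 17 CpGs. Over all windows the medians were 52.7% and 7, and over windows with any merged region 62.7% and 22. The windows under a common TET2 region, one with a peak in all 4 target lists and in no control list, had 58.0% and 15. Windows over regions that had a parental 1 peak besides those of wild-type 1 and FLAG-TET2 1 had 62.7% and 22. The median ratio of observed to expected CpGs was 0.643, against 0.383 over all windows and 0.791 over those with any region. The windows were thus richer in CpG than the table at large, and less rich than the windows under regions of any kind.

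Short motifs were counted on both strands of the same windows. CCGG was in 78.8% of the windows over a shared replicate-1 region, in 52.8% of all windows and in 86.1% of those over any region. GGGCGG, the core of the SP1 box, was in 61.4%, 35.6% and 68.4%, and its bases can overlap the first motif. The E-box CACGTG, which MYC and MAX bind, was in 8.80%, 7.15% and 11.2%. CCAAT was in 40.3%, 37.4% and 37.2%. TATAAA was in 5.08% against 13.6% of all windows, and in 5.79% of those over any region. For the first 3 of these motifs the share lay between that of all windows and that of windows under any region. TATAAA was below both and CCAAT above both, the latter within the 34.6% of windows under common regions and the 44.6% under regions with an added parental 1 peak. A match is a description of the letters and not of a bound site.

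Few pairs of lists shared so many regions. Among all pairs of lists, 7740 regions were exclusive to FLAG-TET2 1 and parental 1, and the 5773 exclusive to wild-type 1 and FLAG-TET2 1 came next. The 2 wild-type lists alone shared 503 regions and the 2 FLAG-TET2 lists alone 1321. Wild-type 1 and knockout 2, which share the antibody, alone shared 1112. With replicate 2 in place of replicate 1 of both target groups the same rule found 2 regions.

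**Figure D1:**
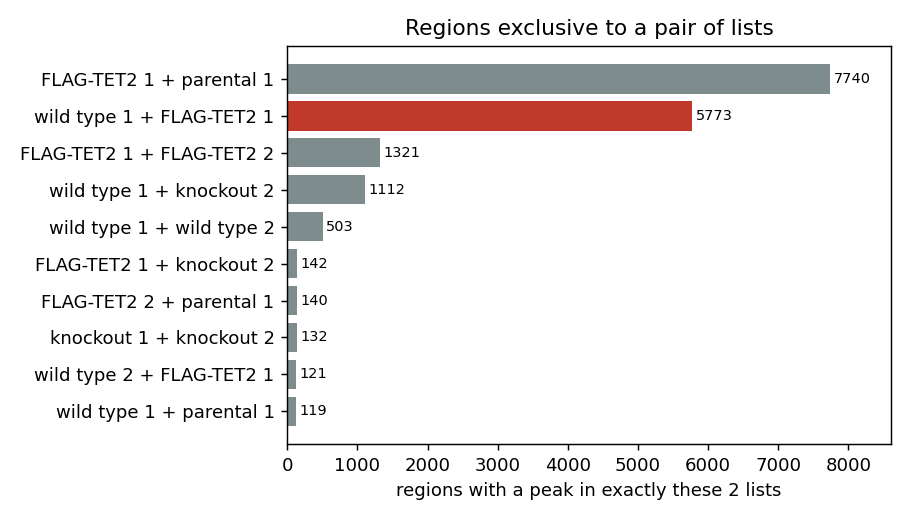
Number of merged regions with a peak in exactly the 2 lists named, for the 10 largest pairs (bars start at 0; red, wild-type 1 with FLAG-TET2 1). The red bar (5773) is exceeded only by FLAG-TET2 1 with parental 1 (7740), and the next pair has 1321.

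Wild-type 1 and FLAG-TET2 1 had 28321 regions in common, of which the shared replicate-1 regions made up 20.4%, and 38.7% of the 14920 without a control peak. Beyond them, 2961 regions added FLAG-TET2 2 alone, 1665 added wild-type 2 alone, 870 parental 1 alone and 471 knockout 2 alone. The number therefore depended on the second FLAG-TET2 list: without FLAG-TET2 replicate 2 it was 8748.

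Most of the regions were weak peaks in both lists, but not all. The median fold was 5.81 in wild-type 1 (5th to 95th percentile 3.86 to 8.70) and 6.09 in FLAG-TET2 1 (3.78 to 10.1). Common TET2 regions had medians of 10.4 and 11.9. Regions seen in wild-type 1 alone had 5.23 and those in FLAG-TET2 1 alone 5.59. By percentile of −log10 q within the list, the median shared replicate-1 region stood at 32.9 in wild-type 1 and at 36.1 in FLAG-TET2 1, against 84.1 and 85.7 for common regions. Of the 5773, 3145 (54.5%) were below the median of both lists, while 690 (11.95%) were above the median of both. The highest percentiles reached were 93.1 and 94.6. A single peak of each list made up the region in 98.7% of cases.

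In the weakest decile of the wild-type 1 list 21.1% of peaks belonged to these regions, in the fifth 21.6% and in the strongest 0.0779%. The FLAG-TET2 1 list gave 12.1%, 11.8% and 0.189%. Peaks of common regions ran the other way, from 1.04% to 39.4% in wild-type 1. Peaks that no other list shared fell from 31.2% in the weakest decile of wild-type 1 to 0.0260% in the strongest. The shared replicate-1 regions thus made up a near-constant share of the weaker 5 deciles of each list and a falling share above them.

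**Figure D2:**
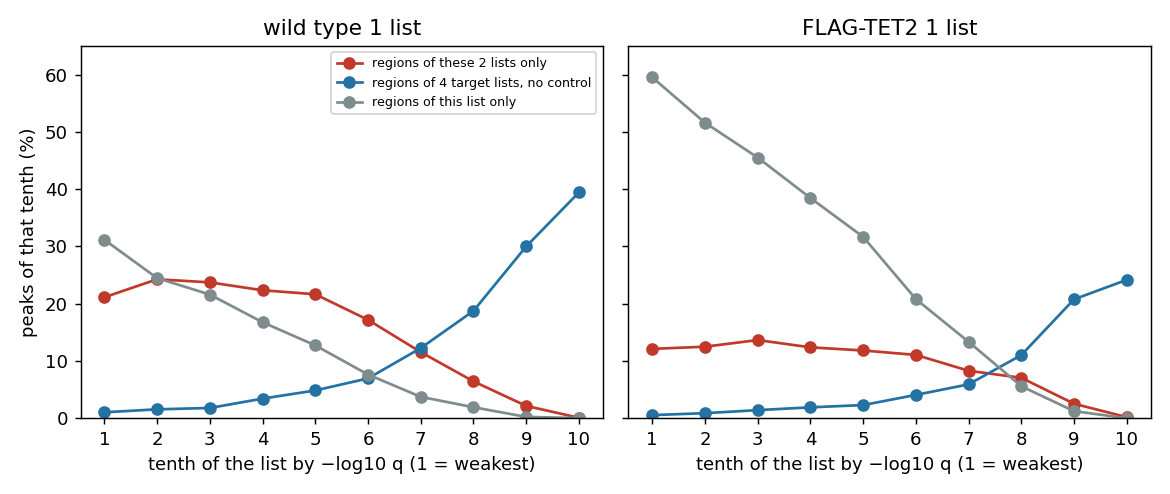
Share of peaks (%) in each decile of −log10 q (1, weakest, to 10, strongest) that belong to the shared replicate-1 regions (red), to regions of all 4 target lists without a control peak (blue) or to regions of that list alone (grey), for wild-type 1 (left) and FLAG-TET2 1 (right). Red stays near 21% to 24% in the weaker 5 deciles of wild-type 1 and near 12% to 14% in those of FLAG-TET2 1, then drops.

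The strongest members lay in or near genes of several kinds. The leading one lay 10.9 kb from Htr5a, a serotonin receptor gene (chromosome 5, 27830507 to 27830823), with folds of 14.8 in wild-type 1 and 12.2 in FLAG-TET2 1. Inside the span of Nat8f5 (chromosome 6, 85818374 to 85818813) the folds were 10.8 and 14.5, and inside Rai14 (chromosome 15, 10687397 to 10687771) 11.3 and 14.5. A region 12.9 kb from Chrna7, a nicotinic acetylcholine receptor subunit, had 11.3 and 16.7. The other leading regions lay in Itpr1, an inositol trisphosphate receptor (8.73 and 13.2), Coa7 (12.97 and 10.6) and Nos1ap (10.2 and 9.40), 41.5 kb from Septin9 (13.1 and 10.1) and 22.1 kb from Sipa1l3 (11.1 and 10.4). Of the 9 regions described, none lay within 1 kb of a gene end, and the nearest peak of a second target replicate was between 9505 and 60438 bp away.

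At the lower edge stood regions over the start of Snx19, a sorting nexin (folds of 2.56 and 2.70), in Ccnd3, which encodes cyclin D3 (2.56 and 2.84), at an end of Tesc (3.43 and 3.47), 13.6 kb from Ttyh1 (2.85 and 2.99) and 0.821 kb from Cysrt1 (3.25 and 2.84). Their −log10 q values lay between 2.06 and 2.93, close to the lowest value of the lists (2.04 in wild-type 1 and 2.01 in FLAG-TET2 1). Peaks of a second target replicate came closest at Pknox2, 3 bp outside the region, then at 2310039H08Rik (12 bp), Farp1 (14 bp), Mtf2 (15 bp) and Lin37 (49 bp). These were the only 5 with such a peak within 50 bp. Just outside the rule stood regions in Rbfox1, Kcnc4, Cdpf1 and Tshz3, whose parental 1 peak shared 3, 5, 8 and 11 bp, and in Prkcb, whose knockout 2 peak shared 10 bp. Their folds were 3.25 to 5.71 in wild-type 1 and 4.25 to 6.30 in FLAG-TET2 1. At the 5 regions just inside they were 4.07 to 9.34 and 2.68 to 6.09. The regions just outside overlapped a control peak, while those just inside lay near a target peak. They stand at different edges of the rule, so their strengths are not compared. In all, 33 regions missed the rule by an overlap under 50 bp with 1 peak of another list.

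The summits of the antibody and the FLAG peak lay close together in most regions. The rule asks only for a shared base between peaks, not for near summits, though peaks this narrow limit how far apart summits can be. The distance between the wild-type 1 and FLAG-TET2 1 summits had a median of 37 bp and was at most 50 bp in 61.6% of regions (3554 of 5773, exact 95% interval 60.3% to 62.8%). Intervals here and below treat regions as units and cover counting error only, since regions come from the same libraries. Common regions had a median of 25 bp and a share of 77.7% (76.5% to 78.9%). Regions with a parental 1 peak besides wild-type 1 and FLAG-TET2 1 had 77.5 bp and 38.4% (35.1% to 41.7%), and were wider (median 474.5 against 270 bp). In shared replicate-1 regions the wild-type 1 and FLAG-TET2 1 peaks always shared a base. In both other classes a peak of another list could join peaks that did not overlap, so the distances are not fully comparable. Both summits fell on the same base in 0.918% of shared replicate-1 regions and in 1.22% of common regions. Regions of Jarid2, Igf2, Erg and Tfcp2l1 were among the former, and were picked with their values known.

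**Figure D3:**
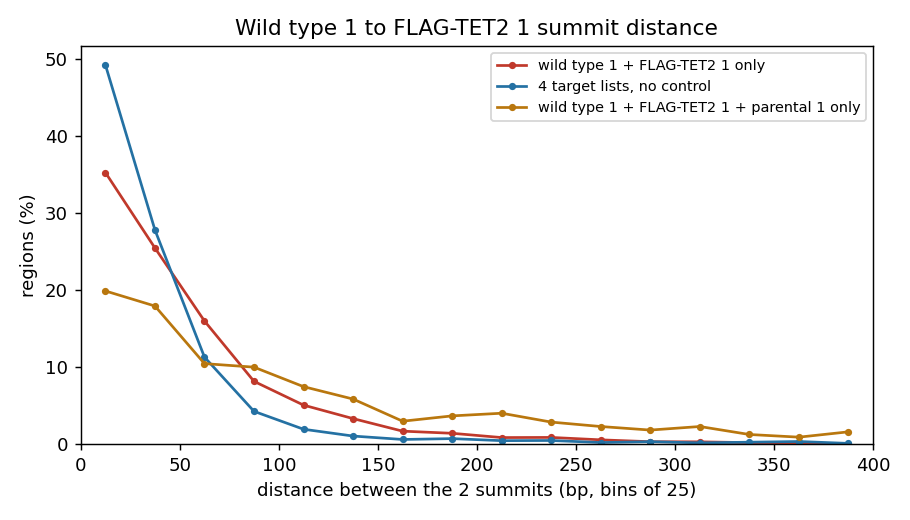
Distribution of the distance in bp between the wild-type 1 and FLAG-TET2 1 summits (25 bp bins, share of regions in %) for shared replicate-1 regions (red), regions of all 4 target lists without a control peak (blue) and regions with an added parental 1 peak (ochre). Medians are 37, 25 and 77.5 bp.

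Near summits were more frequent at stronger peaks, in shared replicate-1 and common regions alike. Among regions between the 60th and 80th percentile of wild-type 1, the summits were within 50 bp in 72.8% of the shared replicate-1 regions (509 of 699, 69.4% to 76.1%) and in 72.1% of common regions (858 of 1190, 69.5% to 74.6%). Between the 40th and 60th the shares were 66.9% and 62.4%, and below the 20th 52.3% and 40.7%, the latter over 59 regions only. Above the 80th they were 76.7% (86 regions) and 84.6%. The intervals overlapped in all 5 bins of that list. In the FLAG-TET2 1 list they did not between the 20th and 40th percentile, where the shares were 60.0% (57.6% to 62.4%) and 49.4% (41.6% to 57.2%). Here too, the peaks compared need not overlap in common regions. Fold itself was less alike between the reagents: over the 5773 regions the log2 folds had a Pearson correlation of 0.345 and a Spearman correlation of 0.323, against 0.625 and 0.611 over the 4521 common regions. The points share their 2 libraries, and the narrow range of fold set by the choice of regions limits these values.

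By position, the shared replicate-1 regions were spread over genes much as common regions are. More were at gene ends when peak strength was not taken into account. Of the 5773, 916 (15.9%, 14.9% to 16.8%) had a coding gene's end no more than 1 kb away, against 22.3% of all merged regions and 10.0% (9.16% to 10.9%) of common regions. Regions of wild-type 1 alone were there in 20.0% and those of FLAG-TET2 1 alone in 12.8%. Regions of wild-type 1 and FLAG-TET2 1 that added only wild-type 2 were there in 19.7%, and those that added only FLAG-TET2 2 in 10.2%. The share exceeded that of common regions on 19 of 20 chromosomes, all but chromosome 8 (10.7% against 11.2%), and was below that of all merged regions on 20 of 20. With strand-resolved starts, over the 4546 regions whose nearest gene has a promoter window in the table, 15.0% lay within 1 kb of a start, against 23.0% of all regions and 8.80% of common regions. Without parental replicate 1 the gene-end share was 21.8%.

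A gene span held 53.1% of the regions, against 56.0% of all merged regions and 52.3% of common regions. More than 50 kb from any gene lay 752 (13.03%), against 16.3% of all regions, 13.2% of common regions and 29.5% of the regions exclusive to FLAG-TET2 1 and parental 1. Inside a span but over 1 kb from its ends were 2405 regions, and 1700 lay outside spans but within 50 kb. The 916 regions at gene ends had the lower median folds, 5.50 in wild-type 1 and 5.67 in FLAG-TET2 1, against 5.98 and 6.47 for the 752 far from genes. Their summits were within 50 bp in 48.5%, against 66.8% far from genes.

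The gene-end share fell as the peaks became stronger. It was 21.8% (20.0% to 23.7%) among the 1924 regions with the lowest mean percentile over both lists, 14.9% (13.4% to 16.6%) among the middle 1924 and 10.9% (9.50% to 12.3%) among the 1925 highest. The same fall was present in other classes. From below the 20th percentile of wild-type 1 to between the 60th and the 80th, it went from 20.3% to 11.7% in the shared replicate-1 regions, from 25.4% to 10.8% in common regions and from 22.5% to 14.9% in regions of wild-type 1 alone. The intervals of shared replicate-1 and common regions overlapped in each of the 5 percentile bins of that list, so no difference in gene-end share at equal strength was resolved there. The share of the shared replicate-1 regions was the lower one in every bin of that list except between the 60th and 80th percentile. In the FLAG-TET2 1 list it was the lower one in each of the 5 bins. There the intervals did not overlap between the 40th and 60th percentile, with 14.9% (13.1% to 16.9%) against 22.5% (18.4% to 27.0%). The higher share over all strengths was thus not seen at equal strength. Regions with an added parental 1 peak were at a gene end in 62.2% below the 20th percentile of wild-type 1 and in 53.6% between the 60th and 80th.

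**Figure D4:**
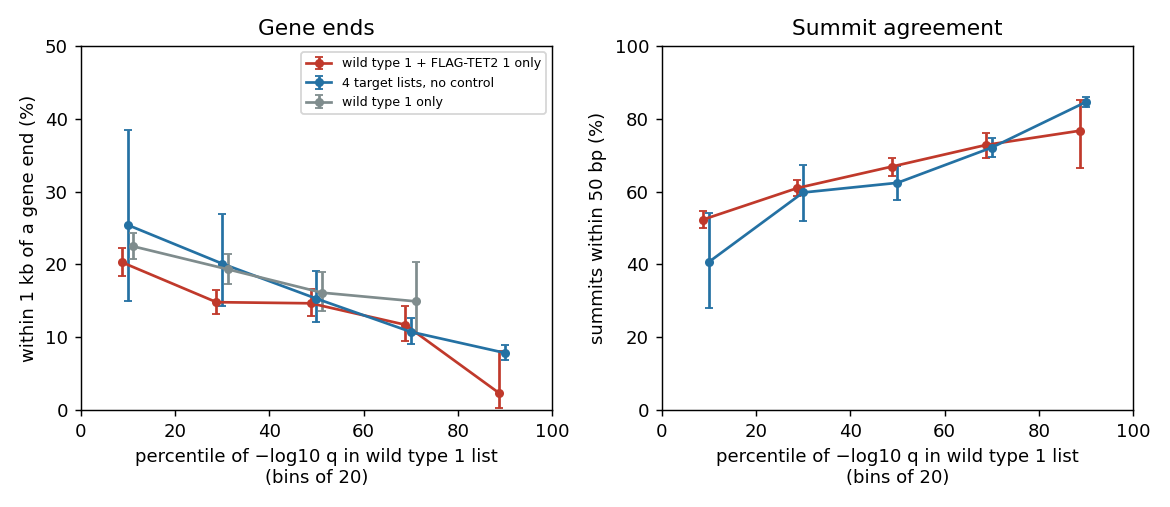
Share of regions (%) within 1 kb of a gene end (left) and with both summits within 50 bp (right), by percentile of −log10 q in the wild-type 1 list (bins of 20, points offset for legibility, bars exact 95% binomial intervals), for shared replicate-1 regions (red), common regions (blue) and regions of wild-type 1 alone (grey, left only). Between the 60th and 80th percentile red and blue stand at 11.7% and 10.8% on the left and at 72.8% and 72.1% on the right. In the other bins red is below blue on the left.

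On the X chromosome a larger share of the regions found with both reagents belonged to this set. Of the regions found in both wild-type 1 and FLAG-TET2 1, 38.2% (132 of 346, 33.0% to 43.5%) on the X chromosome were shared replicate-1 regions. On the 19 autosomes the share ran from 16.1% to 23.0%, with a median of 20.3%. Among regions without a control peak it was 48.7% on X and 29.7% to 45.0% on the autosomes, so the gap was smaller there. Regions in both lists were also weaker on X: their median percentile was 42.8 in wild-type 1 and 56.8 in FLAG-TET2 1, against 56.9 to 62.1 and 62.8 to 73.7 on the autosomes. The part of that difference in the X share was not tested. Members on X were at a gene end in 28.8% (38 of 132, 21.2% to 37.3%), near the 30.9% of all merged regions on X. They included regions near Nr0b1, Bcor and Pgk1.

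Peaks of the other libraries were as frequent or less frequent near these regions than near all regions without such a peak. Within 1 kb of the region, 22.1% had a peak of at least 1 of the 6 other lists, against 24.7% of all regions without such a peak of their own. The latter were the shared replicate-1 regions themselves and regions of wild-type 1 or FLAG-TET2 1 alone. For wild-type 2 or FLAG-TET2 2 the shares were 15.5% and 16.6%. By list they were 10.2% against 10.3% for wild-type 2, 12.96% against 13.23% for FLAG-TET2 2, 12.5% against 13.2% for parental 1 and 4.85% against 4.71% for knockout 2. For parental 2 the share was 2.86% (2.44% to 3.32%) against 3.89%, and for knockout 1 it was 0.520% (0.351% to 0.741%) against 0.787%, both below the value over all regions by more than the interval. The values by list compare with regions that may hold peaks of the other control lists, which the rule barred from the shared replicate-1 regions. A second shared replicate-1 region lay within 10 kb in 17.6% of cases and a common region in 14.4%. Common regions had such neighbours more often, in 18.4% and 18.1%, and regions of wild-type 1 alone in 16.7% and 13.3%. Over all merged regions they were found in 13.3% and 11.9%, and around regions exclusive to FLAG-TET2 1 and parental 1 in 8.04% and 6.63%.

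Of 21883 protein-coding genes, 3812 (17.4%) were the nearest gene, within 50 kb, of at least 1 shared replicate-1 region, and 2916 (13.3%) of a common region. Of the 3812, 2674 (70.1%) had no common region. Genes with a shared replicate-1 region were long, with a median span of 36.7 kb against 17.2 kb for all genes. Genes with a common region were longer still, at 41.8 kb. Of all genes, 76.4% were nearest gene of any merged region. The span of those genes was not compared, so length is not shown to be particular to this set. Etl4, which spans 900.3 kb, was nearest gene of the most, 8, beside 8 common ones, among 57 merged regions. Nav1, Msi2, an RNA-binding protein gene, Gcnt2, Usp7, a deubiquitinase, Aff1 and Gse1 had 6 each, Dst and Tmem131 5 each. Apart from Etl4, these genes had 2 to 6 common regions each, among 18 (Gcnt2) to 54 (Gse1) merged regions. Vdac1, which encodes a mitochondrial outer membrane channel, spans 28.5 kb. It had 6 shared replicate-1 regions and 0 common ones among the 16 merged regions nearest to it. The 6 Vdac1 regions had folds of 3.08 to 8.25 in wild-type 1 and 3.55 to 7.24 in FLAG-TET2 1. The strongest lay inside the gene (chromosome 11, 52364412 to 52364670), 3 lay within 1 kb of its end, and the other 2 lay 14.0 and 20.9 kb outside.

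Genes of the naive pluripotent state often had a shared replicate-1 region nearby, and these made up the same share of their regions as over all genes. From a list of 22 naive-state and LIF/2i signalling genes, 14 were nearest gene of at least 1, against 17.4% of all genes. These 22 genes had a median of 11 merged regions each, against 2 for all genes. Of their 251 regions, 7.57% were shared replicate-1 regions, and the same share over all genes was 7.56%. Common regions made up 13.1% of the 251, against 5.91% over all genes.

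Counts at single naive genes were small, and differences between genes were not tested. Klf4, a core naive factor, had 1 shared replicate-1 region and 0 common regions among its 17 merged regions. Its folds were 5.82 (antibody) and 4.73 (FLAG), at 0.703 kb from the gene (chromosome 4, 55533178 to 55533511). Nr0b1, an orphan nuclear receptor, had 2 and 0 among 4. The stronger (chromosome X, 86187210 to 86187542) had folds of 5.82 and 11.8. Axin2, a WNT target that reports GSK-3 inhibition, had 2 and 0 among 12. Its folds were 8.70 and 9.50 at the one 7.12 kb outside the gene. Tfcp2l1 had 3 beside 4 common regions among 17, and Esrrb 1 beside 5 among 27. Klf2, Klf5 and Tbx3 had 1 each, beside 1, 2 and 2 common regions, among 7, 11 and 24. The Klf2 region (chromosome 8, 72311104 to 72311432) had folds of 5.55 and 5.90 and summits 3 bp apart.

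Of 22 core pluripotency genes 9 had a shared replicate-1 region, against 17.4% of all genes. The 22 genes had a median of 8.5 merged regions each, against 2 for all genes. Of the 9, 8 had a common region too, against 29.9% over all genes with a shared replicate-1 region. The shared replicate-1 regions made up 5.88% of the 204 regions of these genes. Pou5f1, which encodes OCT4, had 1 (folds 5.54 and 6.20, 6.71 kb from the gene) beside 3 common regions. Prdm14, a repressor that protects the naive state, had 3 beside 2. Jarid2, a cofactor of Polycomb complex PRC2, had 1 with folds of 8.38 and 17.5 (chromosome 13, 44851535 to 44851865), the highest of any listed gene in FLAG-TET2 1. Sall4, Mycn, Zfp281 and Utf1 had 1 each. Rif1, a telomere and replication timing factor, had 2 and no common region.

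Of 20 genes of DNA methylation and its removal, 5 had a shared replicate-1 region, against 17.4% of all genes. The 20 genes had a median of 4 merged regions each, against 2 for all genes. All 5 had a common region too, against 29.9% over all genes with a shared replicate-1 region. Tet2 itself had 2 shared replicate-1 regions in its span. The one at chromosome 3, 133513552 to 133513802, had folds of 9.34 in wild-type 1 and 7.61 in FLAG-TET2 1, and the one at 133506609 to 133506772 had 5.50 and 5.33. Tet1 had 1 in its span (6.85 and 9.12) and 1 at 7.07 kb outside (4.77 and 6.24). Smug1, a uracil and hydroxymethyluracil glycosylase, and Rybp, a Polycomb subunit, had 2 each. Dnmt3b, a de novo methyltransferase, had 1 at 0.727 kb from a start (6.46 and 7.23). Over the 131 regions of this list 6.87% were shared replicate-1 regions.

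Of 20 Polycomb genes, with a median of 9 merged regions each, 8 had one, against 17.4% of all genes. Of these 8, 5 had no common region, against 70.1% over all genes with a shared replicate-1 region. Among the 5 were Bmi1 and Phc2, members of complex PRC1, Cbx2, a chromodomain reader, and Bcor, of a variant PRC1. Bmi1 had 2, 1 of them at the gene's end (folds 4.86 and 6.47). Kdm2b, a CpG island binding demethylase, had 4 beside 3 common regions. The share of the list's 184 regions was 7.61%. Of 19 formative and primed genes 7 had one, among them Otx2, Etv5, Foxd3 and Nodal, and they were 5.39% of 167 regions. The Nodal region, 0.599 kb from the gene, had folds of 4.49 and 9.31.

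In lists of other cell types and functions, shared replicate-1 regions made up less of the regions than the 7.56% over all genes. Over all genes, 17.4% had a shared replicate-1 region, and 70.1% of those had no common region. Germ layer, hematopoietic, imprinted and housekeeping genes exceeded that 17.4%, with medians of 4, 3, 5 and 4 merged regions per gene. The median over all genes was 2. Of 22 germ layer genes 7 had one (6.36% of 110 regions). Eomes, Mixl1, Foxa1, Sox1 and Nkx2-5 had no common region, and Neurog1 and Sox9 had 1 each. Of 18 hematopoietic genes 5 had one (6.85% of 73), namely Cebpe, Erg, Fli1, Hhex and Kit. Imprinted genes gave 7 of 17 (7.34% of 109). Snrpn, Igf2, Gnas, Mest, Peg3 and Impact had no common region, and Kcnq1 had 1. Housekeeping genes gave 5 of 20 (6.45% of 93). The lists of enhancer chromatin factors (3 of 19, 3.09% of 97 regions), germline genes (1 of 19, 2.22% of 45) and fibroblast genes (1 of 15, 1.85% of 54) had the lowest shares, the last 2 resting on 1 region each. Over the 12 lists the share of a list's regions ran from 1.85% to 7.61%, beside 7.56% over all genes.

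**Figure D5:**
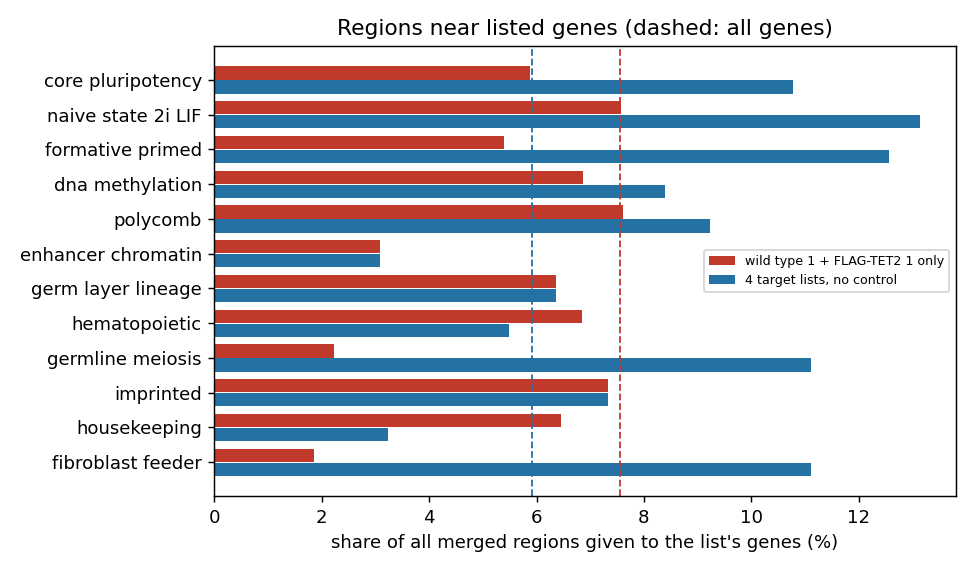
Share (%) of all merged regions given to the genes of each of 12 lists that were shared replicate-1 regions (red) or common regions (blue); dashed lines mark the share over all genes, 7.56% and 5.91%. The red bars run from 1.85% to 7.61%, none of them far above the red line, while blue bars reach 13.1% (naive), 12.6% (formative), 11.1% (germline and fibroblast, few regions) and 10.8% (core).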

How the data were processed

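ChIP-seq of TET2 and of FLAG-tagged TET2 was deposited as 1 peak list per library for 8 of 10 samples; an input and an IgG library were not analysed here. Tools and build, per the submitters' processing notes and with no versions or roles, were DESeq2, DiffBind, MACS2, Bowtie2, Trimmomatic and mm10. Peak names carry q10, rmChrM, rmDUP and IgG. In narrowPeak format, the deposited lists give for each peak a score, a fold enrichment (a linear ratio), −log10 p and −log10 q values and a summit. These are the authors' values, used only within a list. Read depth is not given in the sources used here.

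Peaks on 21 chromosomes were merged where they shared 1 bp or more (Python 3.11.15, pandas 2.3.3, scipy 1.17.1), and the merge and the choice of regions were tested on simulated data and against bedtools. Where a region held several peaks of a list, the one with the highest −log10 q was used. Percentiles rank −log10 q within a whole deposited list. Gene spans (21883 protein-coding genes) and promoter windows came from RefSeq tables of GRCm38.p6, and windows were listed for 79.9% of these genes. No window was listed on chromosome 18, so start-site and promoter values leave that chromosome out. Of 235 listed symbols 2 did not match. Each region was given to the gene whose span was nearest, within 50 kb. Intervals are exact (Clopper-Pearson) 95% binomial intervals.

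The regions and gene lists were chosen with earlier results of these data known, and no test across regions was made. Named regions were the 10 highest and 5 lowest by mean percentile, the 5 strongest over a promoter window, the 5 nearest to a peak of another target list, the 5 just outside by shared bp, and up to 4 genes per list by percentile. Named genes were the 10 with the most regions. Other list members, and the X chromosome and equal-percentile comparisons, were picked with their values known. Part of what these rules select is not reported here.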

Additional observations from a re-analysis of the deposited data

How the results depend on the processing

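Of 59 recomputed values, 34 stayed within the interval of the reported share or within 1.5 times the reported count. The X chromosome values were added after seeing the data. With a −log10 q of at least 5, 5702 regions were found, and they overlapped 4129 of the original 5773; the gene-end share was 17.7%, summits within 50 bp 64.0% and neighbouring peaks 19.5%. With 200 bp summit windows the gene-end share was 17.7%. With peaks within 500 bp merged it was 12.5%, and the summit share 58.8%. At 0.5 and 2 kb the gene-end share was 11.9% and 21.4%. Summits were within 100 bp in 85.1%, and neighbouring peaks within 0.5 and 5 kb in 15.0% and 45.4%. Of 70 listed genes near a region, 34 held it inside the span. With replicate 2 in place of replicate 1 there were 2 regions. Leaving out each of the 6 other lists in turn gave 5774 to 8748 regions, the latter without FLAG-TET2 replicate 2, gene-end shares of 14.0% to 21.8%, the latter without parental replicate 1, gene-span shares of 53.1% to 56.3%, summit shares of 58.5% to 64.0%, neighbouring peak shares of 19.03% to 22.11% and X shares of 38.2% to 55.2%, the last without FLAG-TET2 replicate 2 (autosomes 30.6%). The cause of these shifts was not tested. Without wild-type 1 or FLAG-TET2 1 the rule cannot be applied. No paired analysis was possible because the results come from no test. Unknown depth limits every count of regions.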

Other observations

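Few of the regions lay at microRNA genes. Within 1 kb of a hairpin in the RefSeq table (1005 hairpins) were 13 of the 5773 (0.225%), against 0.296% of all merged regions. Among them were regions 474 bp from Mir152 (folds of 7.01 in wild-type 1 and 7.49 in FLAG-TET2 1), 791 bp from Mirlet7g (5.42 and 5.67) and 901 bp from Mir483, inside Igf2 (7.42 and 7.61). These 3 were chosen after their values were seen.

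Across chromosomes 1 to 19 and X, between 5.20% (chromosome 3) and 10.1% (chromosome X) of all merged regions were shared replicate-1 regions, with a median of 7.44%. Regions over 50 kb from a gene made up 10.6% of the weakest 1924 and 15.7% of the strongest 1925.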
